A study of Homo sapiens with 6 samples.

Results

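The 10 genes described here encode the kinases, cyclins and phosphatases that bring a cell from G2 into mitosis, together with a transcription factor of their genes. They are CDK1, CCNA2, CCNB1, CCNB2, CDC25B, CDC25C, WEE1, PLK1, AURKA and FOXM1. They were taken by name for their known roles, but with earlier results of these data known, from the 58735 genes in the expression table. Each of the 10 matched a single gene there. The study sequenced polyadenylated RNA of MDA-MB-231 cells, an established human line of triple-negative breast cancer. All libraries came from cells labelled wild type that expressed a scrambled control short hairpin RNA (shSCR). 3 libraries were from cells that received 0 Gy and 3 from cells taken 24 h after 10 Gy of gamma radiation from a caesium source, and the comparison asks how the transcriptome of these cells differed after irradiation. The labels do not say whether the 3 libraries of a dose came from separate cultures, so the p-values measure only the spread between these libraries. 1 line and 1 time were measured, and no level of protein or phosphorylation was part of these data.

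The libraries held between 15643641 and 28861781 reads assigned to genes, as recovered from the deposited values, and log2 values within a dose had pairwise correlations of at least 0.992. The defining markers of the line were present. Vimentin (VIM) lay between 247 and 312 FPKM and CD44 between 72.3 and 81.4 FPKM over the 6 libraries. The oestrogen receptor gene ESR1 reached at most 0.0169 FPKM, and PGR was listed at 0 in all 6. Of 6 genes of luminal breast epithelium checked, 4 stayed under 1 FPKM in every library, ESR1 and PGR among them. The others were GATA3, between 2.696 and 3.239 FPKM, and EPCAM, between 1.196 and 1.508 FPKM. FPKM is the number of fragments divided by gene length and by a size of the library, so levels of different genes can be compared per length. The size behind the deposited values was not the assigned reads alone. It was 0.973, 0.983 and 0.991 times those reads in the 0 Gy libraries and 1.036, 1.039 and 1.028 times in the 10 Gy libraries. The origin of this factor is not given in the sources used here.

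Entry into mitosis is driven by CDK1, which has no activity without a cyclin. Cyclin A2 partners it from S phase through G2, and the B cyclins accumulate in G2 and are destroyed in mitosis. WEE1 holds CDK1 inactive by phosphorylation, CDC25 phosphatases remove that phosphate, PLK1 and AURKA promote the switch, and FOXM1 works with B-MYB and the MuvB complex to transcribe many of these genes late in the cycle. After DNA damage the G2 checkpoint kinases keep CDC25 inactive, which holds cells in G2.

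Many promoters of this class carry CCAAT boxes, bound by NF-Y, set a few helical turns apart, and a CHR element (TTTGAA, or TTCGAA in some genes) near the start, bound by MuvB. These short elements are the sequence feature that the genes are known to share, and they are shown for that reason. RefSeq promoters (GRCh38.p14) were listed for 7 of the 10 genes, with 14 starts, and not for AURKA, WEE1 and FOXM1. The 250 bases before each start were searched for CCAAT, for TTTGAA and for TTCGAA on both strands. On the opposite strand CCAAT reads ATTGG, the element TTTGAA reads TTCAAA, and the third is its own reverse complement. The windows below are written 5′ to 3′ on the strand of the gene with the matches in capitals, and the start given for CDK1, CDC25B and CDC25C is the listed one with matches to both kinds of element in its last 120 bases.
CCNB2 CCAAT 120 bases before the start, chr15:59105019-59105042, plus strand: aattcagCCAATgagagtgcgaga
CCNB2 CCAAT 87 bases before, chr15:59105052-59105075, plus strand: gtgttggCCAATgagaacagcgac
CCNB2 CCAAT 54 bases before, chr15:59105085-59105108, plus strand: gggccgcCCAATggggcgcaagcg
CCNB2 TTTGAA 29 bases before, chr15:59105110-59105133, plus strand: cgcggtaTTTGAAtcctggaacaa
CCNB1 CCAAT 87 bases before, chr5:69167056-69167079, plus strand: gcagccgCCAATgggaagggagtg
CCNB1 CCAAT 55 bases before, chr5:69167088-69167111, plus strand: gaacaggCCAATaaggagggagca
CDK1 CCAAT 78 bases before, with TTTGAA, chr10:60778393-60778416, plus strand: ggctctgATTGGctgcTTTGAAag
CDK1 CCAAT 46 bases before, chr10:60778425-60778448, plus strand: ctacccgATTGGtgaatccggggc
CDK1 TTTGAA 13 bases before, chr10:60778458-60778477, plus strand: cggtgagTTTGAAactgctc
PLK1 CCAAT 73 bases before, chr16:23678809-23678832, plus strand: cccgcggCCAATcagtggcgcgca
PLK1 TTTGAA 29 bases before, chr16:23678853-23678876, plus strand: cgccgcgTTTGAAttcggggagga
CDC25C CCAAT 85 bases before, chr5:138331873-138331896, minus strand: cgcggagATTGGctgacgcagctt
CDC25C TTTGAA 30 bases before, chr5:138331818-138331841, minus strand: cggaaggTTTGAAtggtcaacgcc
CDC25B CCAAT 73 bases before, chr20:3796230-3796253, plus strand: ctaccccATTGGtggcgtccggcg
CDC25B TTCGAA 38 bases before, chr20:3796265-3796288, plus strand: gttatttTTCGAAtatataaggag
CCNA2 CCAAT 56 bases before, chr4:121823923-121823946, minus strand: cgctttcATTGGtccatttcaata

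Counted by start, CCAAT was found before 10 of the 14 listed starts, TTTGAA before 5 and TTCGAA before 1, where some starts of a gene lie close together and share bases. Of the 35116 promoter windows in the RefSeq table, 32.0% held CCAAT, 13.3% TTTGAA and 1.19% TTCGAA. Each of the 7 genes had CCAAT before at least 1 start, TTTGAA was found for CDK1, CCNB2, CDC25C and PLK1, and TTCGAA for CDC25B. In CCNB2 the CCAAT matches nearest the start lay 33 bases apart, as did the next pair upstream, in CCNB1 32 bases apart and in CDK1 32 bases apart. Most of these windows lie wholly or partly inside annotated exons of longer transcripts in GENCODE 29, and the 2 upstream CCNB2 windows lie outside every annotated exon of that gene. The matches are a description of these letters and not of binding. Only these letters before the listed starts were searched, so a gene without a TTTGAA or TTCGAA match, as CCNA2 and CCNB1, may still hold a CHR element.

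CDK1, the kinase itself (ENSG00000170312, chr10:60778331-60794852, plus strand), rose slightly after irradiation. Its level was 54.3, 52.0 and 52.0 FPKM in the 0 Gy libraries and 58.5, 58.2 and 58.2 FPKM in the 10 Gy libraries. All 3 irradiated libraries lay above all 3 controls. The mean went from 52.8 ± 1.36 to 58.3 ± 0.150 FPKM (SD, n = 3 each), a log2 change of 0.14 (SE 0.030, limma with Benjamini-Hochberg adjustment over 12128 genes, adjusted p = 0.0112). Without replicate 1 of the 10 Gy group the adjusted p was 0.0505. In RNA from a whole culture, a larger share of cells in G2 or mitosis and more transcript per cell cannot be told apart, here or for any gene that follows.

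The mitotic cyclins rose more than their kinase, and cyclin A2 did not pass the test. CCNB1, the main mitotic partner of CDK1 (chr5:69167010-69178245, plus strand), was at 132, 125 and 126 FPKM in the controls and at 172, 169 and 172 FPKM after 10 Gy. CCNB2, the second B cyclin (chr15:59105078-59125045, plus strand), was at 33.8, 32.0 and 30.3 FPKM and then at 46.7, 47.0 and 48.1 FPKM. The dose groups of both B cyclins were fully separated. The mean of CCNB1 was 1.34 times as high after irradiation, with a log2 change of 0.42 (SE 0.035, limma adjusted p = 0.000593). The mean of CCNB2 was 1.47 times as high, with a log2 change of 0.55 (SE 0.043, limma adjusted p = 0.000576), the largest change among the 10 genes. CCNA2, the S and G2 phase cyclin (chr4:121816444-121823933, minus strand), was at 88.2, 84.7 and 89.0 FPKM in the controls and 84.2, 85.2 and 82.5 FPKM in the irradiated cells, and these ranges overlapped. Its log2 change was -0.06 with a 95% interval from -0.13 to 0.02 (limma adjusted p = 0.214), and the sign turned under 3 other scalings, given with the effects of processing.

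Both CDC25 phosphatases among the 10 genes, which activate CDK1, rose, and the kinase that opposes them did not pass the test. CDC25A, which is not among the 10, was called lower and is given with the partners of CDK1. CDC25B, the isoform that starts CDK1 activation at the centrosome (chr20:3786772-3806121, plus strand), was at 61.1, 58.7 and 56.6 FPKM in controls and 70.0, 68.8 and 69.4 FPKM after 10 Gy. CDC25C, which amplifies the switch in late G2 (chr5:138285265-138338355, minus strand), was at 8.36, 7.76 and 8.01 FPKM and then 9.92, 10.1 and 10.2 FPKM. Neither gene had overlapping groups. The log2 changes were 0.24 for CDC25B (SE 0.035, limma adjusted p = 0.00312) and 0.29 for CDC25C (SE 0.038, limma adjusted p = 0.00195). The CDC25C values rested on 398 to 990 reads a library, the fewest of the 10 genes. WEE1, the inhibitory kinase (chr11:9573681-9593457, plus strand), was at 5.20, 5.27 and 5.75 FPKM without irradiation and 5.36, 5.43 and 5.55 FPKM with it. The irradiated WEE1 values fell inside the range of the controls, and the 95% interval of its log2 change ran from -0.10 to 0.12 around 0.01 (limma adjusted p = 0.889).

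**Figure D1:**
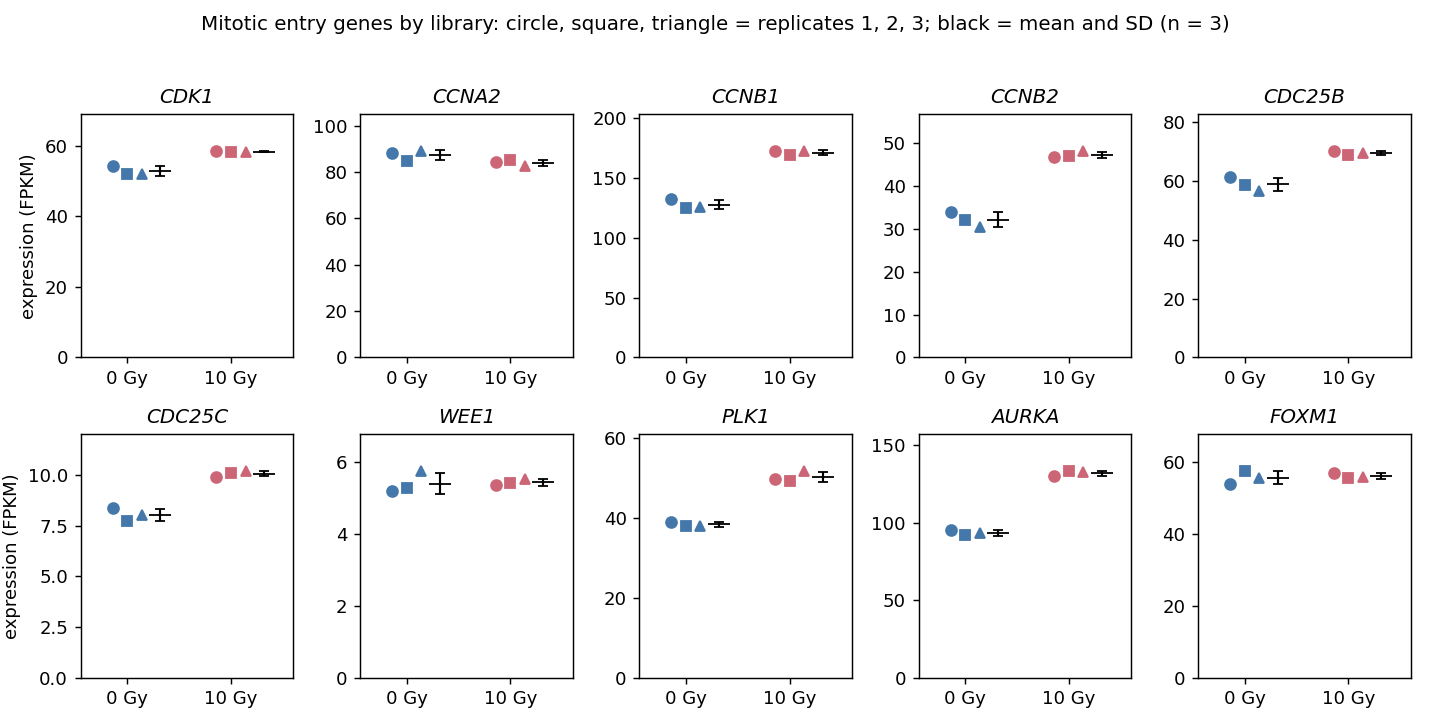
Expression in FPKM of each of the 10 mitotic entry genes (vertical axes, each starting at 0) in the 3 libraries at 0 Gy and the 3 libraries 24 h after 10 Gy, with points for single libraries and black bars for the mean and SD. The groups are apart for 7 genes, all higher after 10 Gy, and overlap for CCNA2, WEE1 and FOXM1.

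PLK1 and AURKA, the mitotic kinases of the 10 genes outside the CDK1 complex, both rose. AURKB, which is not among the 10, was called lower and is given with the partners of CDK1. PLK1, the polo-like kinase that activates CDC25 and marks WEE1 for destruction (chr16:23677656-23690367, plus strand), was at 39.0, 38.0 and 37.9 FPKM in the controls and 49.7, 49.2 and 51.6 FPKM after irradiation. AURKA, the centrosomal kinase that activates PLK1 (chr20:56369389-56392337, minus strand), was at 95.5, 91.9 and 93.0 FPKM and then at 130.1, 133.1 and 132.5 FPKM. In both genes the lowest irradiated library exceeded the highest control. PLK1 changed by 0.38 on the log2 scale (SE 0.031, limma adjusted p = 0.000593) and AURKA by 0.49 (SE 0.030, limma adjusted p = 0.000346), the smallest adjusted p of the 10 genes. The PLK1 change lay next to the 1.3-fold mark, which is 0.38 on the log2 scale.

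FOXM1, the transcription factor of many genes of this class (chr12:2857681-2877155, minus strand), did not pass the test. It was at 53.8, 57.4 and 55.6 FPKM in the controls and 57.0, 55.5 and 55.8 FPKM after 10 Gy, with overlapping groups. Its log2 change was 0.01, with a 95% interval from -0.07 to 0.09 (limma adjusted p = 0.783). On the TPM scale, which sets the summed values of every library equal and at which 16391 genes reached the same minimum, it was 0.14 and passed the test (limma adjusted p = 0.0462). The intervals of CCNA2, WEE1 and FOXM1 all stayed short of a 1.3-fold change on the scale of the deposited FPKM.

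Across the 10 genes, 7 were called higher and 0 lower by limma at an adjusted p of 0.05. Over the 12128 genes tested, 35.6% were called, 11.9% higher and 23.7% lower. The count on the lower side was also 0 at an unadjusted p under 0.05 and with limma voom. A change of at least 1.3-fold was found for CCNB2, AURKA, CCNB1 and PLK1 on the higher side, against 2.82% of all genes tested, and for 0 on the lower side, against 2.95%. Leaving out replicate 2 or 3 of the controls or replicate 3 of the irradiated group left 3 such genes. The 3 irradiated libraries all lay above the 3 controls for the same 7 genes, against 19.1% of all genes tested. The median log2 change of the 10 genes was 0.26 and that of all genes tested -0.04. The 3 genes not called, CCNA2, WEE1 and FOXM1, sat at the 46.3, 60.6 and 61.2 percentiles of the changes of all genes tested, and CCNB2 sat at 98.8. The summed level of the 10 genes was 553 to 572 FPKM in the controls and 681 to 686 FPKM after irradiation.

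**Figure D2:**
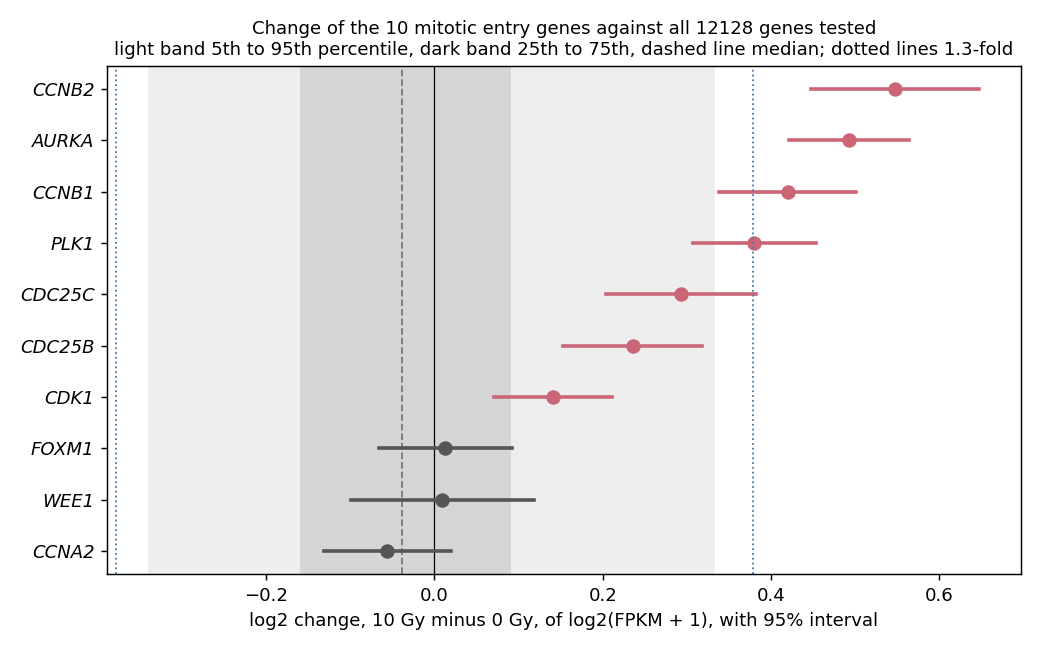
Log2 change after 10 Gy (horizontal axis, on the log2(FPKM + 1) scale) of each of the 10 genes with its 95% interval, red where called and dark grey where not, over the 5 to 95 (light) and 25 to 75 (dark) percentile ranges of all 12128 genes tested. CCNB2, AURKA, CCNB1 and PLK1 lie beyond the light range, which ends at 0.33.

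The balance of calls over all genes differed between scalings, and the changes of the 10 genes are therefore also given relative to the median. Of all calls, 33.4% were on the higher side with the deposited FPKM, 63.9% with upper quartile scaling, 60.2% with the recovered reads in limma voom and 76.9% with TPM, where the median of the genes tested was 0.11. The TPM values are larger numbers than the FPKM, so the same minimum and added 1 kept 16391 genes and weighed less on low ones, and the part of the scale itself was not tested apart. Relative to the median of all genes tested under the same setting, CCNB2 was higher by 0.53 to 0.63, AURKA by 0.48 to 0.57 and CCNB1 by 0.41 to 0.50 on the log2 scale over the 18 alternatives. CDK1 was higher by 0.13 to 0.22. On the same relative scale CCNA2 lay between -0.07 and 0.02. Without replicate 2 of the 10 Gy group 852 genes were called higher over the whole table, instead of 1443, and 7 of the 10 genes described here were called there.

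**Figure D3:**
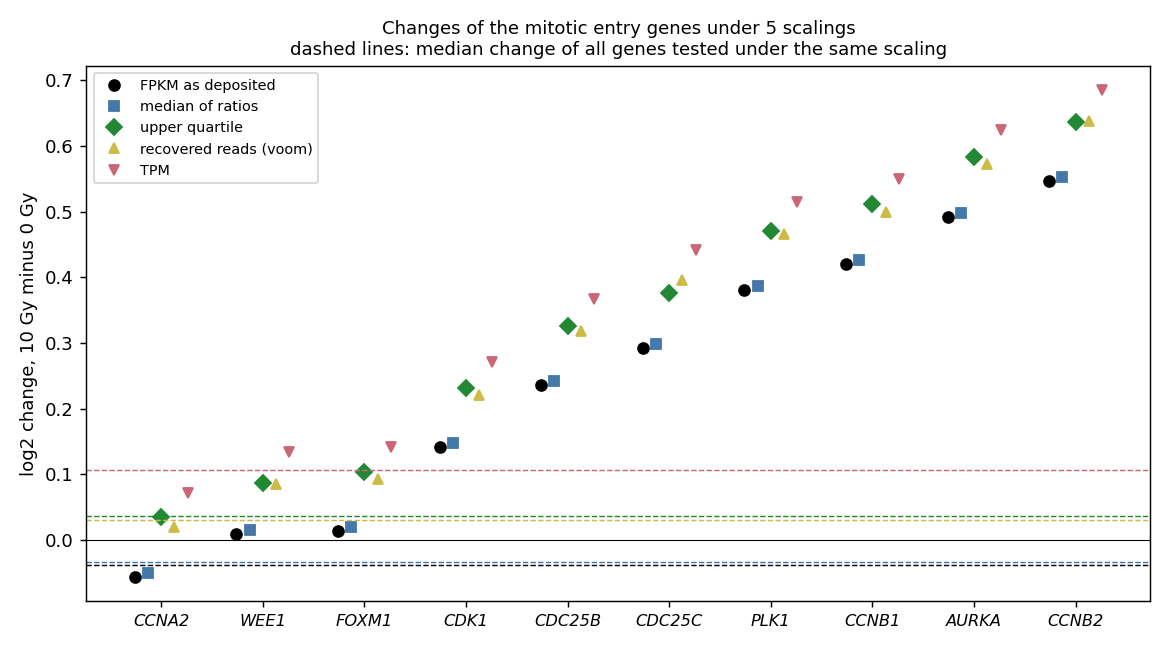
Log2 change after 10 Gy (vertical axis) of the 10 genes with the FPKM as deposited, median-of-ratios, upper quartile and TPM scaling, and recovered reads in limma voom, with dashed lines at the median of all genes tested in the same colour. The 7 called genes stay above the median line of their own scaling, and CCNA2, WEE1 and FOXM1 lie close to it.

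The genes differed widely in abundance. Per length, CCNB1 was the most abundant of the 10 at both doses, followed by AURKA and CCNA2, and CDC25C and WEE1 were the least abundant. In the controls the levels of CDC25B, FOXM1 and CDK1 followed each other with overlapping ranges, and every other neighbour in the order was separated. After irradiation CDK1 stood above FOXM1, the only exchange in the order, and no neighbours overlapped.

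Ratios of FPKM within a library compare 2 genes with the scaling between libraries cancelled, and 6 were computed. Their test used the difference of log2(FPKM + 1), in which the added 1 keeps a small dependence on the scale. The level of CCNB1 was 2.43, 2.40 and 2.42 times that of CDK1 in the controls and 2.94, 2.90 and 2.96 times after irradiation. The level of CCNA2 was 0.685 ± 0.0215 of that of CCNB1 in the controls and 0.491 ± 0.0129 after irradiation (SD, n = 3). The cyclin ratios of all control libraries were thus apart from those of all irradiated libraries, with cyclin B1 gaining on both its kinase and cyclin A2. The CCNB2 to CCNB1 ratio went from 0.251 ± 0.00853 to 0.277 ± 0.00431, and the WEE1 to CDC25B ratio from 0.0922 ± 0.00854 to 0.0785 ± 0.00171. The PLK1 to AURKA ratio went from 0.410 ± 0.00290 to 0.380 ± 0.0101. The printed FPKM ratios of these 5 pairs separated the doses, and so did their log2(FPKM + 1) differences, each with a two-sided exact permutation p of 0.1 (0.12 after Benjamini-Hochberg adjustment over the 6), which is the smallest p that 3 against 3 libraries can give and cannot pass a threshold of 0.05. The CDC25C to CDC25B ratio was 0.137, 0.132 and 0.1415 in the controls and 0.1417, 0.147 and 0.147 after irradiation, so the FPKM ratios were just apart, while the log2(FPKM + 1) differences overlapped (two-sided exact permutation p = 0.2). With an added 0.01 in place of 1 the exact permutation p was 0.1.

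**Figure D4:**
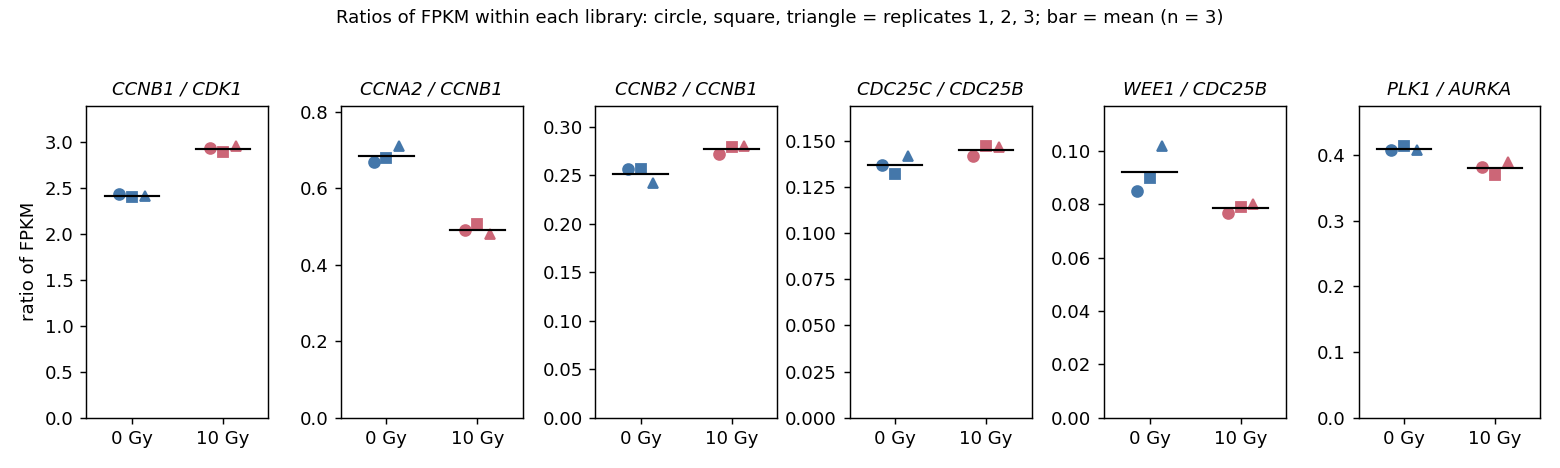
Ratio of the FPKM of 2 genes within each library (vertical axes, each starting at 0) at 0 Gy and 10 Gy, with points for libraries and bars for the mean of 3. The CCNB1 to CDK1 ratio is higher and the CCNA2 to CCNB1 ratio lower in every irradiated library, and the highest control and lowest irradiated CDC25C to CDC25B ratios nearly meet.

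Some of these genes share exonic bases with genes on the other strand, and whether counting used the strand is not given in the sources used here. FAM53C shares 293 exonic bases with CDC25C, 8.78% of its exonic length, and stood at 13.0 ± 0.844 and 15.9 ± 0.600 FPKM (SD, n = 3), above CDC25C per length at both doses. Reads from those bases could belong to either gene, so the level and the change of CDC25C are uncertain. EXOSC9 shares 254 exonic bases with CCNA2, 9.08% of the exonic length of CCNA2. It stood at 18.8 and 15.5 FPKM on average, below CCNA2 at both doses. ITFG2 shares 781 with FOXM1, 15.9% of the exonic length of FOXM1, at 1.83 and 1.64 FPKM. Here too, reads from the shared bases could belong to either gene. The antisense gene AC008870.3 shares 553 bases with PLK1, 11.6% of the exonic length of PLK1, and reached at most 0.261 FPKM. The processed pseudogenes CCNB2P1 and AURKAP1 reached at most 0.0401 and 0.226 FPKM.

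Other genes of the same machinery were taken as lists of known roles, also with earlier results of these data known. Their counts are to be read against the 11.9% called higher and 23.7% called lower over all genes tested. Of 21 tested partners and regulators of CDK1, 3 were called higher, 8 lower and 10 were not called, with a median log2 change of -0.10. On the TPM scale the counts were 6 higher and 1 lower, and without replicate 1 of the 10 Gy group 4 were lower. NEK2, a centrosomal kinase, went from 31.9 ± 0.584 to 49.0 ± 1.07 FPKM (SD, n = 3), a log2 change of 0.60 (limma adjusted p = 0.000227). PKMYT1, the membrane-bound relative of WEE1, fell from 21.4 ± 1.96 to 17.2 ± 0.535 FPKM (limma adjusted p = 0.0107), a call that was lost on the TPM scale. CDC25A, another CDC25 phosphatase, fell from 14.9 ± 0.442 to 13.0 ± 0.225 FPKM (limma adjusted p = 0.00666). AURKB, a kinase related to AURKA, fell from 60.5 ± 1.75 to 51.8 ± 0.158 FPKM (limma adjusted p = 0.00262). At most 1 of the calls of CDC25A and AURKB held on the TPM scale. CKS2, the small CDK1-binding subunit and most abundant of this list, was at 153.5 and 167.5 FPKM with separated groups and a log2 change of 0.12 (limma adjusted p = 0.126), and it was called with upper quartile scaling (0.22, adjusted p = 0.0184), TPM (0.25, adjusted p = 0.0106) and limma voom (0.20, adjusted p = 0.00536).

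Of 14 tested genes listed with the FOXM1, B-MYB, MuvB and NF-Y transcription factors, 2 were called higher and 6 lower, with a median of -0.13. The list also holds RBBP4 and genes of the RBL, E2F and TFDP families, and not all its genes encode transcription factors. The lower calls were 2 on the TPM scale and 3 without replicate 2 of the 10 Gy group. Both genes called higher, TFDP2 and RBL2, had a mean under 5 FPKM and were not tested where that minimum was set. MYBL2, which encodes B-MYB, was at 70.5 ± 4.60 and 63.9 ± 2.89 FPKM with overlapping groups (limma adjusted p = 0.0856), and it was called lower with a replicate block (adjusted p = 0.0389) and among protein-coding genes alone (adjusted p = 0.0455). TFDP1, the dimer partner of E2F proteins, fell from 75.8 ± 1.83 to 62.9 ± 1.74 FPKM (limma adjusted p = 0.00193), and NFYC, an NF-Y subunit, fell from 7.14 to 5.74 FPKM (limma adjusted p = 0.00188). TFDP2 rose from 3.80 to 5.10 FPKM (limma adjusted p = 0.00214).

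Of 15 tested genes of the G2 checkpoint and cell cycle arrest, 1 was called higher and 5 lower, and the higher calls were 2 with upper quartile scaling, TPM and limma voom. The gene called higher, ATM, was not tested with a minimum of 5 FPKM. CDKN1A, the CDK inhibitor p21, fell from 30.7 ± 1.72 to 24.7 ± 1.90 FPKM (limma adjusted p = 0.0102), a call lost on the TPM scale. GADD45A, a stress-induced inhibitor of the CDK1 complex, fell by 0.66 on the log2 scale (limma adjusted p = 0.00122), and SFN, the 14-3-3 protein that keeps CDK1 complexes in the cytoplasm, fell by 0.59 (limma adjusted p = 0.000445). ATM, the kinase at the head of the damage response, rose from 3.83 ± 0.242 to 5.04 ± 0.0826 FPKM (limma adjusted p = 0.00351).

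Of 12 genes of the ubiquitin system that act on mitotic entry proteins, not all of them ligases, 3 were called higher and 2 lower, and 5 were higher on the TPM scale. CDC20, the mitotic activator of the anaphase-promoting complex, rose from 132 ± 3.27 to 164 ± 0.902 FPKM (limma adjusted p = 0.000963). FBXO5, which encodes the inhibitor EMI1 of that complex, fell from 17.7 ± 0.532 to 11.7 ± 0.321 FPKM (limma adjusted p = 0.000428). UBE2C, the conjugating enzyme of the complex, went from 203 ± 10.3 to 228 ± 2.32 FPKM (limma adjusted p = 0.0230). That call was lost with no filter on low values (limma adjusted p = 0.0865). It was also lost when any library other than replicate 1 of the controls was left out.

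The remaining lists hold genes by the phase of their peak expression, and the changes of the lists overlap. Of 23 other genes with peak mRNA in G2 and mitosis, 14 were called higher and 2 lower, with a median log2 change of 0.22, and leaving out any of the 6 libraries left 1 lower call. ASPM, a spindle pole gene, rose from 21.1 ± 2.12 to 33.4 ± 0.451 FPKM (limma adjusted p = 0.000964), and TOP2A, the topoisomerase of chromosome condensation, from 125 ± 5.15 to 149 ± 5.01 FPKM (limma adjusted p = 0.00466). HJURP, the chaperone of the centromeric histone, fell from 36.2 to 31.9 FPKM (limma adjusted p = 0.00465), a call lost under upper quartile and TPM scaling. Of 20 genes with peak mRNA in G1 and S phase, 0 were called higher and 18 lower by limma, with a median of -0.32 and a log2 change above 0 in none of them. RRM2, a ribonucleotide reductase subunit, fell from 35.1 ± 0.513 to 21.6 ± 0.768 FPKM (limma adjusted p = 0.000227). CCND1, the G1 cyclin and most abundant of that list over the 6 libraries, fell from 156 ± 1.78 to 144 ± 2.28 FPKM (limma adjusted p = 0.0211), with the sign turned on the TPM scale and the call lost under upper quartile scaling, in voom, with no filter, with a replicate block (adjusted p = 0.0622) and without replicate 3 of the controls or replicate 1 or 2 of the irradiated group.

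**Figure D5:**
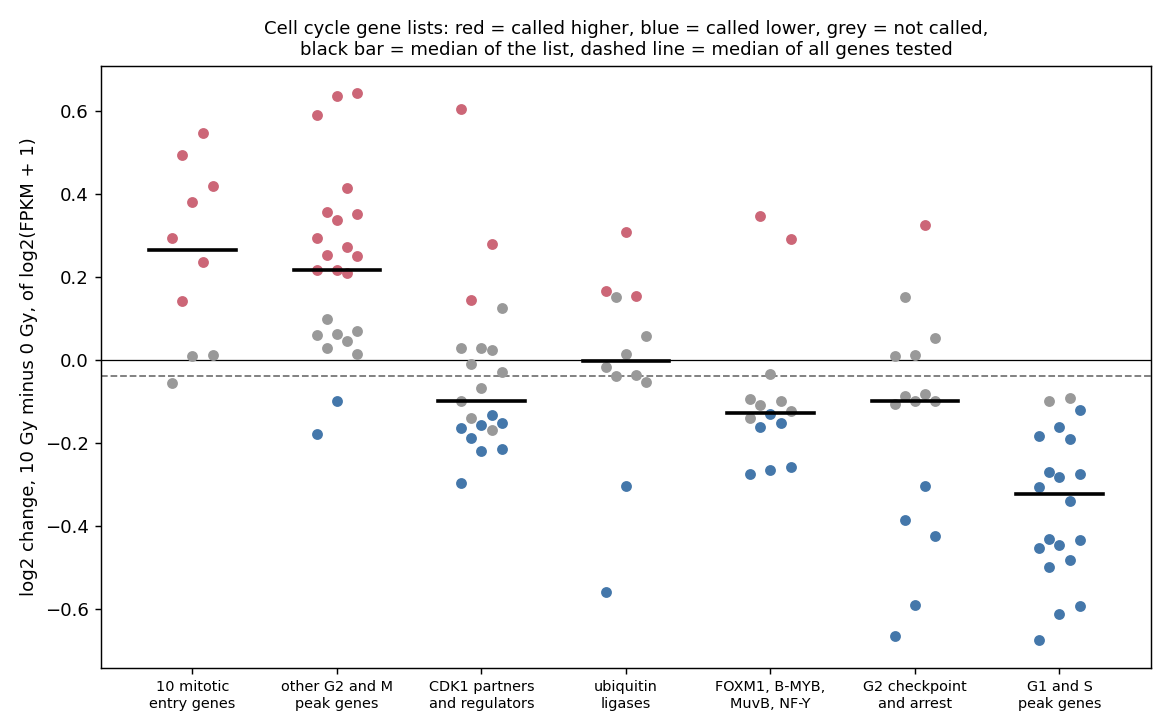
Log2 change after 10 Gy (vertical axis, on the log2(FPKM + 1) scale) of the 10 mitotic entry genes and of the tested genes of 6 other cell cycle lists, 1 point per gene, red where called higher, blue where called lower and grey where not called, with a bar at the list median. The mitotic entry and other G2 and M genes have medians of 0.26 and 0.22, and the G1 and S genes of -0.32.

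The gene with the profile most like the mean profile of the 10 genes was CDC20, with a Pearson r of 0.9996 over the 6 libraries, followed by NXN, PLPPR2, ZDHHC24 and PLAT, each above 0.99. Among 10481 protein-coding genes compared, 50 exceeded 0.99. The 6 points fall into the 2 doses, so r mainly describes the step between them.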

How the data were processed

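RNA-seq of 6 libraries (3 at 0 Gy and 3 at 24 h after 10 Gy, grouped by the labels) was analysed. The deposited table held FPKM per gene that the authors computed. The submitters' processing notes name HISAT2 and GRCh38, and the counting program is not given in the sources used here. Gene coordinates and exonic lengths of the 10 genes matched GENCODE 29. FPKM values were whole multiples of 1 read for 100% of values (tolerance 0.05 read), which gave each library's reads. The 12128 genes whose mean reached 1 FPKM were tested on log2(FPKM + 1) with limma 3.58.1 in R 4.3.3, empirical Bayes with a trend and Benjamini-Hochberg adjustment over all of them, at 0.05. Fold changes on this scale understate those of low genes. Ratios were tested by exact permutation. The method was tested on simulated data.

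The 10 genes and all lists were chosen with earlier results of these data known. From each list were named the most abundant gene, the called genes with the largest rise and fall, and PKMYT1, MYBL2 and CDKN1A in any case. CDC25A and AURKB were named besides, as relatives of genes among the 10. Also named were the 5 protein-coding genes with the highest Pearson r to the mean profile. Alternatives comprised pseudocounts, filters, scalings, moderation, voom, a replicate block and each library left out.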

Additional observations from a re-analysis of the deposited data

How the results depend on the processing

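The 7 calls among the 10 genes and the absence of lower calls were computed under 18 alternatives, with 6 to 8 genes called higher and 0 lower, and 3 to 5 of them at least 1.3-fold higher. Over all genes, 1443 calls on the higher side became 874 with a mean of at least 5 FPKM, 2556 with upper quartile scaling, 3232 with TPM and 2844 with voom, and 852 to 1393 with a library left out. The 2874 lower calls became 1815 with no filter, 1444 with upper quartile scaling, 972 with TPM and 1884 with voom, and 1808 to 2630 with a library left out. Calls of at least 1.3-fold on the higher side, 342, became 538 and 557 with pseudocounts of 0.1 and 0.01, 125 with the mean of at least 5 FPKM, 577 with upper quartile scaling, 1392 with TPM and 926 with voom. Those on the lower side, 358, became 145 with upper quartile scaling and 136 with TPM. Over the 6 gene lists, 23 higher and 41 lower calls became 35 and 22 with TPM. With TPM, 16391 genes reached the minimum in place of 12128 and the added 1 weighed less, so those counts rest on several changes at once. The cause was not tested for the others.

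The log2 change of CCNA2 turned to 0.035 with upper quartile scaling, 0.072 with TPM and 0.019 with voom, and that of CCND1 to 0.0082 with TPM. With a library left out, WEE1 ranged from -0.014 to 0.048, with values below 0 without replicate 1 or 2 of the controls or replicate 3 of the irradiated group. FOXM1 ranged from -0.010 to 0.036, with the value below 0 without replicate 1 of the controls.

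Libraries of both doses share replicate numbers, and same-numbered libraries did not deviate together, with correlations of -0.101 to -0.035 against -0.052 to 0.094 for different numbers, so the numbers were not taken to pair them. A replicate block gave 1137 higher and 2366 lower calls over all genes and the same 7 and 0 among the 10 genes. Among the named genes other than CDC25A and AURKB, the block gained the call of MYBL2 and lost that of CCND1. The fewest reads lay behind CDC25C and WEE1.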
